A study of Homo sapiens with 36 samples.

Results

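A set of 10 genes of the tumour necrosis factor (TNF) superfamily was followed in Jurkat cells in which the RELA gene was activated. They are 5 ligands (LTA, LTB, TNF, CD70 and CD40LG) and 5 receptors (TNFRSF9, FAS, TNFRSF1A, TNFRSF1B and TNFRSF10B), taken by name as family members of T cells from the 74628 genes in the count table, and all 10 were found in it and tested. Jurkat is an established human T-lymphocyte leukaemia line, and every sample came from 1 stable derivative of it, labelled mCherry+, that expresses dCas9-VP64, a cleavage-dead Cas9 fused to a transcriptional activator. A lentiviral vector brought in either a guide RNA against RELA (sgRELA) or a non-targeting guide (sgControl). Puromycin selection for 3 days was common to both, and harvest was on day 5, 6 or 7 after transduction. The 6 combinations of guide and day had 3 biological replicates apiece, and the 18 RNA samples gave 2 RamDA-seq libraries each, whose counts were added here. RamDA-seq copies total RNA with random primers and here began from 100 pg of RNA, so a transcript with few copies could be missed in one library and caught in the other. The labels name 1 guide against RELA, so an effect of that guide and an effect of RELA cannot be told apart, and no cells without a guide were analysed here.

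TNF superfamily ligands are trimeric proteins, mostly held on the cell surface, that signal by clustering their receptors. Some receptors, such as FAS, TNFRSF1A and TNFRSF10B, carry a death domain and can lead to apoptosis, while others, such as TNFRSF1B and TNFRSF9, bind TRAF adaptors and feed into NF-kB and kinase pathways. RELA encodes p65, a subunit of NF-kB. The family is known for working on both sides of NF-kB: its receptors activate the factor, and several of its genes are known NF-kB targets in lymphocytes.

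The libraries held between 7586205 and 16124473 counts, and the 18 RNA samples between 18769530 and 29503934. Levels are given in CPM, a gene's share of a sample's counts, adjusted by TMM factors that lay between 0.971 and 1.08, and a gene was called changed at an adjusted p under 0.05. RELA itself, which checks the labels, stood at 27.2 ± 2.77 CPM with sgControl against 209.5 ± 12.9 CPM with sgRELA (SD, n = 3 sums over days). Its mean in sgRELA was 293.7 CPM on day 5, 201.1 CPM on day 6 and 127.2 CPM on day 7, against 33.3, 24.0 and 24.7 CPM in sgControl. All 12 T cell marker genes on the list were detected well enough to be tested, with a summed level of 2568 to 3741 CPM in sgControl samples and 2764 to 3898 CPM in sgRELA samples. CD28, a costimulatory receptor, was the 1 marker of these called between the guides across days, where 0.363% of all genes were called. Its log2 fold change was 0.31 ± 0.06 (SE; edgeR adjusted p = 0.0177). Several of the T cell markers were called between days. Of the B cell markers, CD79A, a B cell receptor component, stood at 19.8 ± 0.317 CPM with sgControl against 56.0 ± 0.829 CPM with sgRELA (SD, n = 3; edgeR adjusted p = 3.88e-11), while MS4A1, which encodes the B cell antigen CD20, had a mean of 0.0285 CPM or less in both guides. The 5 myeloid markers summed to 19.9 to 41.1 CPM in sgControl and 21.2 to 42.4 CPM in sgRELA. Most of this came from 1 of the 5 genes, and each of the others had a mean of 1.11 CPM or less in both guides. The part of any of these markers in the results below was not tested. Fewer cells that express a gene and less RNA per cell cannot be told apart in such bulk samples.

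The promoter windows of the genes are shown first, because the activated protein is a DNA-binding factor. RefSeq windows on GRCh38.p14 were available for 7 of the 10 genes, and the 250 bases before each start were searched on both strands for the NF-kB consensus, which overlaps no other motif searched. Of all 35116 windows of that length, 9.96% hold it, and 11.8% of the 27305 genes hold it before at least 1 start. Among the 7 genes, which have 11 windows, 4 have a match before at least 1 start. Each is printed as the 30 bases around the match, on the strand of the gene, with the match in capitals.
TNFRSF9, chr1:7940893-7940922, minus strand: agctgtggtGGGAATTTCCCatgagacccc
LTB, chr6:31582492-31582521, minus strand: aggggtgtgcGGAAAGTCCCagccaggtgt
LTA, chr6:31572176-31572205, plus strand: ctaagccctGGGGGCTTCCCcgggccccag
FAS, chr10:88991264-88991293, plus strand: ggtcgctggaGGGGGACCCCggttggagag
The matches lie 64 to 74 bases before the start in TNFRSF9, 77 to 86 before one LTB start and 78 to 87 before another, 94 to 104 before one LTA start and 148 to 157 before one FAS start. Capitals in TNFRSF9 and LTA cover overlapping matches. All 4 stretches also lie inside exons of longer GENCODE v29 transcripts of the same gene, and the FAS stretch inside an exon of ACTA2 as well. The windows of TNF, TNFRSF1A and TNFRSF1B hold no match, and those of CD70, CD40LG and TNFRSF10B were not searched. A match is a stretch of letters and not a measured binding site.

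Across days, 2 of the 10 genes were called between the guides, the receptor TNFRSF9 and the ligand LTB, and both rose in sgRELA. Their sgControl sums were 0, 0 and 1 counts for TNFRSF9 and 4, 1 and 9 for LTB. Both therefore passed the filter on low counts through sgRELA alone, here and in the fits by day. Over all 28888 genes tested, 0.363% were called, and 0.242% were called higher. At an unadjusted p under 0.05, 4 of the 10 passed (TNFRSF9, LTB, FAS and TNFRSF10B), against 6.74% of all genes. In 4 genes (TNFRSF9, LTB, CD70 and TNFRSF10B) all 3 sgRELA sums over days lay above all 3 sgControl sums in CPM. This order was found in 6.34% of all genes, while the FAS sums of the guides overlapped. In CD70 (1.55 ± 0.115 CPM with sgControl, 2.00 ± 0.389 with sgRELA) and TNFRSF10B (76.2 ± 3.69, 84.3 ± 4.98; SD, n = 3) the nearest sums almost met. For single days and between days, the share of all genes with such an order is not given. There an order describes the samples only. The 6 genes other than TNFRSF9, LTB, FAS and TNFRSF10B had fitted log2 fold changes between -0.14 (CD40LG) and 0.47 (TNF). The median log2 fold change was 0.37 over the 5 ligands and 0.15 over the 5 receptors, beside -0.00 over all genes.

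**Figure D1:**
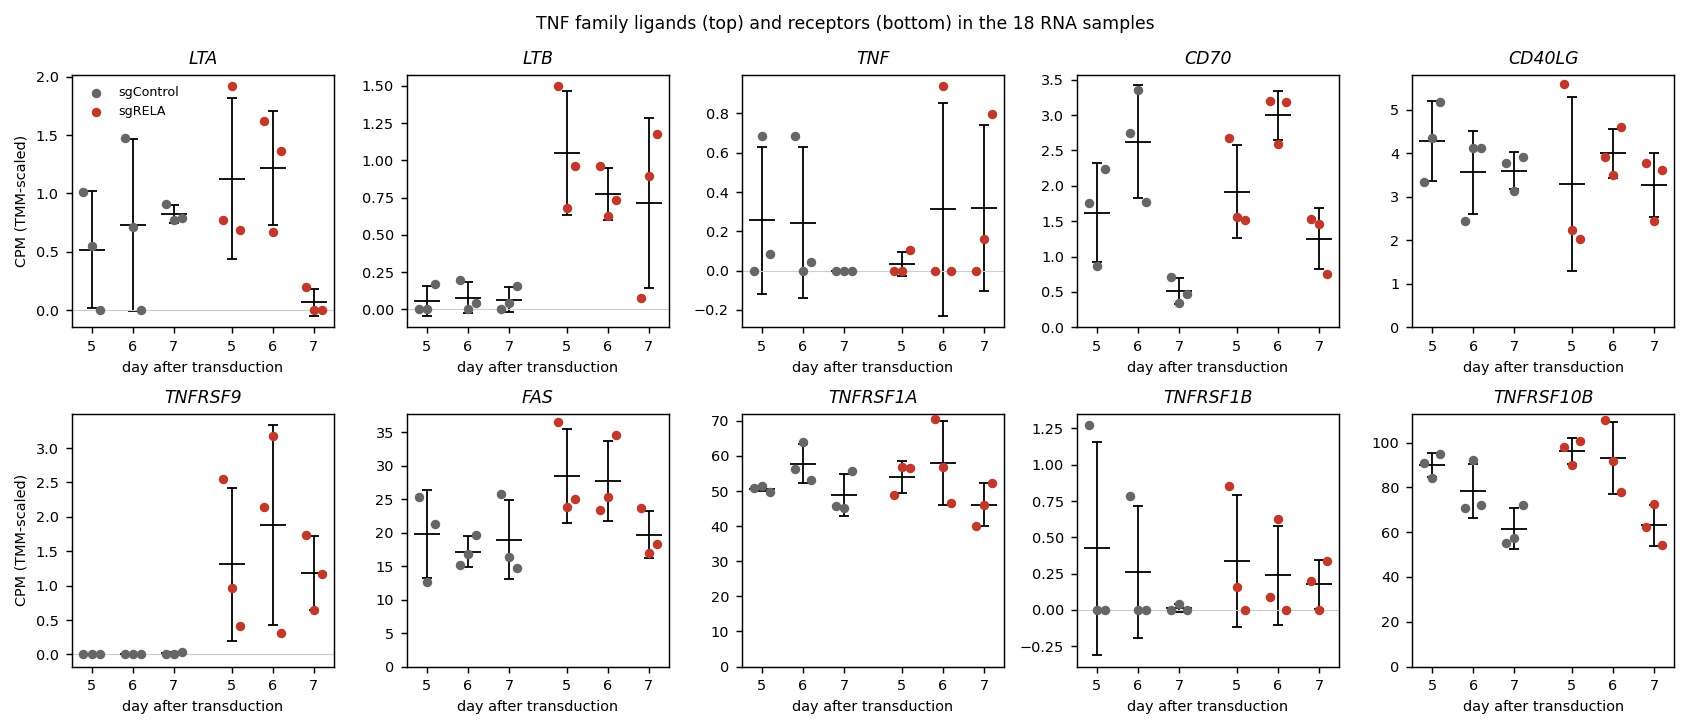
TMM-scaled CPM (y axis, linear) of each gene in each of the 18 RNA samples, by day (x axis) and guide (grey sgControl, red sgRELA). Points are RNA samples and black marks are the mean ± SD of 3. TNFRSF9 lies near 0 in all 9 sgControl samples, and the SD bars of the sparse genes TNF and TNFRSF1B reach below 0 because most of their samples hold few or no counts.

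Among the ligands, LTA, LTB and TNF sit side by side within 10469 bases of chromosome 6 (chr6:31572054-31582522, GRCh38). LTB (ENSG00000227507, chr6:31580525-31582522, minus strand) encodes lymphotoxin beta, which anchors lymphotoxin alpha in the membrane so that the complex can reach the lymphotoxin beta receptor. Its counts in the 3 sgRELA samples were 37, 17 and 28 on day 5, 22, 14 and 14 on day 6, and 2, 22 and 28 on day 7. In sgControl they were 0, 0 and 4 on day 5, 4, 0 and 1 on day 6, and 0, 1 and 4 on day 7. The guides did not overlap on days 5 and 6, and on day 7 one sgRELA sample, with 2 counts, lay below the highest sgControl sample. LTB stood at 0.0668 ± 0.0561 CPM with sgControl against 0.847 ± 0.118 CPM with sgRELA across days (SD, n = 3), from 14 and 184 counts. The ratio of these counts, scaled for depth, was 12.5, with a 95% counting interval of 7.26 to 23.3. The fitted log2 fold change was 3.62 ± 0.69 (SE; edgeR adjusted p = 0.0153).

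LTB had a positive estimate on each day: its log2 fold change was 4.05 ± 1.41 on day 5, 3.22 ± 1.37 on day 6 and 3.30 ± 1.36 on day 7 (SE). No single day passed on its own (edgeR adjusted p = 0.679, 0.725 and 1). Both libraries held LTB in 6 of the 9 sgRELA samples and in 0 of the 9 sgControl samples. The across-days call held in 8 of 14 alternative fits. Among these was the average of the day contrasts over the 18 RNA samples (log2 fold change 3.52, edgeR adjusted p = 0.0359). The call was lost with either library alone. With the first the log2 fold change was 4.72 (adjusted p = 0.166), and with the second 2.56 (0.671), both still higher in sgRELA. The adjusted p also rose above 0.05 when sgControl replicate 1 (0.0684) or sgRELA replicate 1 (0.1002), 2 (0.0590) or 3 (0.142) was left out, with the log2 fold change between 3.16 and 4.45 in all 6 such fits.

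**Figure D2:**
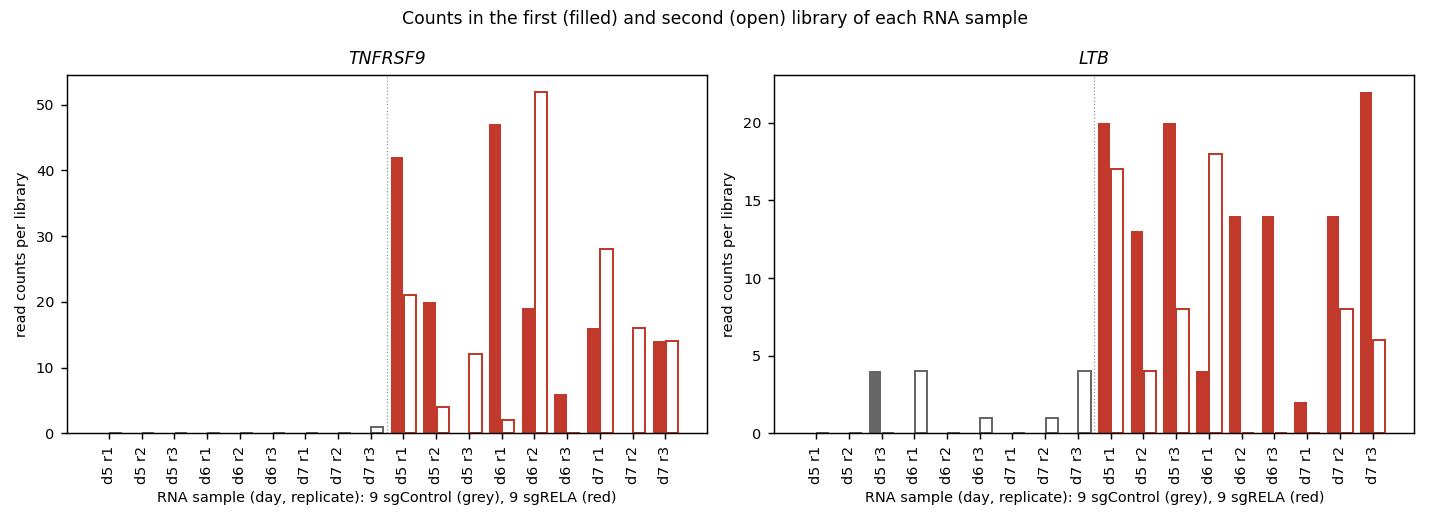
Read counts of TNFRSF9 and LTB (y axis, linear) in the first (filled bars) and second (open bars) library of each RNA sample, 9 sgControl samples in grey and 9 sgRELA samples in red along the x axis. TNFRSF9 has 1 count in the 18 sgControl libraries, and in sgRELA samples both genes are often far apart between the libraries of one RNA.

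LTA (ENSG00000226979, chr6:31572054-31574324, plus strand) encodes lymphotoxin alpha, the partner of LTB and, on its own, a soluble ligand of the TNF receptors. LTA had 23, 12 and 0 counts in sgControl on day 5, 30, 16 and 0 on day 6, and 22, 18 and 20 on day 7. In sgRELA it had 19, 48 and 20 counts on day 5, 37, 15 and 26 on day 6, and 5, 0 and 0 on day 7. The guides overlapped on days 5 and 6, and on day 7 all sgRELA samples lay below all sgControl samples. Across days the levels were 0.690 ± 0.416 CPM with sgControl against 0.783 ± 0.127 CPM with sgRELA (SD, n = 3). The log2 fold change of LTA between guides was 0.18 ± 0.48 (SE; edgeR adjusted p = 0.984).

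Within sgRELA, LTA fell on day 7. Its log2 fold change was -4.08 ± 1.31 against day 6 (edgeR adjusted p = 0.0368) and -3.97 ± 1.30 against day 5 (0.0420), from totals of 87, 78 and 5 counts on the 3 days. In sgControl the totals were 35, 46 and 60 counts, and no day difference was called. The difference between guides on day 7 alone did not pass (edgeR adjusted p = 0.964), and the test of whether the day course differed between guides gave an adjusted p of 1 for LTA (unadjusted 0.0214). Each of the falls lost its call with either library alone and when any of 4 RNA samples was left out, and DESeq2 gave no adjusted p for LTA there. The samples were sgRELA day 6 replicates 1 and 3 (adjusted p = 0.0919 and 0.0702) and day 7 replicates 2 and 3 (0.137 and 0.131) against day 6. Against day 5 they were sgRELA day 5 replicates 1 and 2 (0.0517 and 0.139) and day 7 replicates 2 and 3 (0.146 and 0.144). Against day 5 the log2 fold change was -4.56 with the first library and -3.04 with the second. Leaving out day 7 replicate 1, the 1 sample with counts, moved the fitted log2 fold change to -7.84 and -7.72.

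TNF (ENSG00000232810, chr6:31575567-31578336, plus strand), the founding inflammatory cytokine of the family, was caught only now and then. It had 0, 15 and 2 counts in sgControl on day 5, 14, 0 and 1 on day 6, and 0 in all 3 samples on day 7. In sgRELA it had 0, 0 and 3 counts on day 5, 0, 21 and 0 on day 6, and 0, 4 and 19 on day 7. It was not detected in either library in 5 of 9 samples of each guide, and in the sgRELA sample with 21 counts all of them came from 1 library. The level was 0.157 ± 0.0996 CPM with sgControl against 0.217 ± 0.189 CPM with sgRELA across days (SD, n = 3; log2 fold change 0.47 ± 1.06, SE; edgeR adjusted p = 0.982). For the day 7 sgControl group, 0 counts allow a level of up to 0.0412 CPM. No change of TNF between guides was detected, and on day 6 a single sgRELA sample held all the counts of its group.

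CD70 (ENSG00000125726, chr19:6583183-6604103, minus strand) is the ligand of CD27 and gives T cells a costimulatory signal. Its counts were 40, 19 and 52 in sgControl on day 5, 56, 75 and 40 on day 6, and 17, 8 and 12 on day 7. In sgRELA they were 66, 39 and 44 on day 5, 73, 58 and 61 on day 6, and 39, 36 and 18 on day 7. The day 7 samples of sgControl were all lower than every other CD70 value of that guide. The guides overlapped on days 5 and 6, while on day 7 the sgRELA samples lay at 0.755 to 1.54 CPM and the sgControl samples at 0.342 to 0.704 CPM. Between guides the log2 fold change of CD70 was 0.37 ± 0.28 across days (SE; edgeR adjusted p = 0.887) and 1.30 ± 0.53 on day 7 (adjusted p = 1, unadjusted 0.0210).

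CD70 fell from day 6 to day 7 in sgControl, from 2.62 ± 0.796 to 0.507 ± 0.183 CPM (SD, n = 3). The log2 fold change was -2.36 ± 0.54 against day 6 (SE; edgeR adjusted p = 0.00201) and -1.67 ± 0.53 against day 5 (0.0348). In sgRELA the values were -1.25 ± 0.51 (0.116) and -0.61 ± 0.50 (0.529), and neither was called. The test of a different day course in the guides gave an adjusted p of 1 for CD70 (unadjusted 0.248), so the guides were not shown to differ. The fall against day 5 lost its call in 9 of 14 alternative fits, among them those without sgControl day 5 replicate 1 (adjusted p = 0.0865) or 3 (0.162) or day 7 replicate 2 (0.146) or 3 (0.106). The fall against day 6 lost it only with the first library alone (0.187) or the second alone (0.0566).

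CD40LG (ENSG00000102245, chrX:136648193-136660390, plus strand) encodes the CD40 ligand, by which helper T cells stimulate B cells and dendritic cells. It was found in all 36 libraries, with 76, 95 and 120 counts in sgControl on day 5, 50, 92 and 93 on day 6, and 91, 73 and 99 on day 7. In sgRELA it had 138, 56 and 59 counts on day 5, 89, 78 and 88 on day 6, and 96, 60 and 86 on day 7. The guides overlapped on every day. Its level was 3.81 ± 0.580 CPM with sgControl against 3.45 ± 0.887 CPM with sgRELA across days (SD, n = 3). The log2 fold change was -0.14 ± 0.23 (SE; edgeR adjusted p = 0.970), and CD40LG was not called between any days.

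Among the receptors, TNFRSF9 (ENSG00000049249, chr1:7915894-7943165, minus strand) encodes 4-1BB, or CD137, a costimulatory receptor known as an activation marker of T cells. It had 63, 24 and 12 counts in the sgRELA samples on day 5, 49, 71 and 6 on day 6, and 44, 16 and 28 on day 7. In sgControl it had 0 counts in 8 of 9 samples and 1 count in the other, day 7 replicate 3. TNFRSF9 was the 1 gene of the 10 in which all 9 sgRELA samples lay above all 9 sgControl samples, an order shared by 0.0692% of all genes tested. Summed over days, 313 counts stood against 1, a depth-scaled ratio of 297 with a 95% counting interval of 53.0 to 11783. The level in sgRELA was 1.44 ± 0.755 CPM (SD, n = 3), and the edgeR adjusted p was 8.61e-06.

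By day, TNFRSF9 had 99 counts in sgRELA against 0 in sgControl on day 5, and 126 against 0 on day 6. With 3 counts over the sgControl group as the floor, the depth-scaled ratios of these counts were 28.4 and 42.7. These floors cover counting error in sgControl only, and not the spread between sgRELA replicates or between libraries of one RNA. On day 7 the ratio was 86.8 (88 counts against 1; 95% counting interval 15.2 to 3468). The 0 counts of sgControl allow a level of up to 0.0442 CPM on day 5 and 0.0459 CPM on day 6. It was 1 of 10 genes called on day 5 (edgeR adjusted p = 0.0219) and 1 of 10 on day 6 (0.00788), where 0.138% and 0.214% of the 27553 genes tested were called. On day 7 none of the 10 was called, against 0.0907% of all genes, and TNFRSF9 had an adjusted p of 0.0946. At an unadjusted p under 0.05, 5 of the 10 passed on day 7, against 4.68% of all genes: TNFRSF9, LTB, CD70 and TNF on the higher side and LTA on the lower. Of these, TNF rested on 0, 4 and 19 counts in sgRELA, and the LTB samples of the guides overlapped on that day. On days 5 and 6 TNFRSF9, LTB and FAS passed this threshold, and the share over all genes for those days is not given here. DESeq2 called 1 of the 10 on day 7, TNFRSF9 (adjusted p = 0.0219).

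The sgRELA mean of TNFRSF9 was 1.31 ± 1.11 CPM on day 5, 1.88 ± 1.45 on day 6 and 1.19 ± 0.542 on day 7 (SD, n = 3), and no day difference was called. Both libraries held it in 6 of 9 sgRELA samples, and in the other 3 a single library carried all 12, 6 or 16 counts. The across-days call held in all 14 alternative fits, with adjusted p up to 0.00908. The calls of single days did not: with either library alone TNFRSF9 passed on neither day 5 nor day 6. Day 5 lost its call without sgControl replicate 1 (0.126), 2 (0.108) or 3 (0.113) or sgRELA replicate 1 (0.139), and day 6 without sgControl replicate 3 (0.0557) or sgRELA replicate 2 (0.0556). The GENCODE v29 gene AL009183.1 overlaps TNFRSF9, and how the authors assigned reads in such overlaps is not given in the sources used here.

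FAS (ENSG00000026103, chr10:88990582-89015785, plus strand), the death receptor also called CD95, was well covered, with at least 275 counts in every RNA sample. It stood at 25.4, 12.6 and 21.4 CPM in sgControl on day 5, 15.1, 16.8 and 19.6 on day 6, and 25.8, 16.3 and 14.8 on day 7. In sgRELA it stood at 36.6, 23.8 and 25.0 CPM on day 5, 23.3, 25.3 and 34.6 on day 6, and 23.6, 17.01 and 18.3 on day 7. On day 6 every sgRELA sample was above every sgControl sample, whereas on days 5 and 7 the guides overlapped. Across days FAS was at 18.7 ± 3.58 CPM with sgControl against 25.0 ± 2.99 CPM with sgRELA (SD, n = 3). The log2 fold change was 0.42 ± 0.13 (SE), with an unadjusted p of 0.00288 that did not pass after adjustment (edgeR adjusted p = 0.271).

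By day the log2 fold change of FAS was 0.52 ± 0.24, 0.69 ± 0.24 and 0.05 ± 0.24 (SE; edgeR adjusted p = 0.807, 0.536 and 1). The test of a guide effect that differs by day was not passed either (edgeR adjusted p = 1, unadjusted 0.161). With no filter on low counts FAS was called across days, at a log2 fold change of 0.43 (adjusted p = 0.00779). FAS shares its locus with ACTA2 and RF02116 in GENCODE v29. The genes whose levels followed FAS most closely over the 18 RNA samples were TMEM30A (Pearson r = 0.80) and ZNF700 (0.76), the highest of 12529 genes compared. This is a description, since the samples share guides and days.

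TNFRSF10B, the TRAIL receptor DR5 (ENSG00000120889, chr8:23020133-23069179, minus strand), had the highest level of the 10 genes. It stood at 91.0, 84.2 and 94.8 CPM in sgControl on day 5, 70.997, 92.1 and 71.9 on day 6, and 55.3, 57.2 and 72.2 on day 7. In sgRELA it stood at 98.1, 89.8 and 100.9 CPM on day 5, 110.0, 91.8 and 77.8 on day 6, and 62.5, 72.5 and 54.2 on day 7. In both guides the day 7 samples all lay below the day 5 samples. Across days the guides stood at 76.2 ± 3.69 and 84.3 ± 4.98 CPM (SD, n = 3), a log2 fold change of 0.15 ± 0.06 (SE; edgeR adjusted p = 0.666, unadjusted 0.0309).

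TNFRSF10B fell between day 5 and day 7 in each guide, with a log2 fold change of -0.55 ± 0.13 in sgControl (SE; edgeR adjusted p = 0.00490) and -0.61 ± 0.13 in sgRELA (0.00186). From day 6 to day 7 the log2 fold change was -0.56 ± 0.13 in sgRELA (0.00361) and -0.35 ± 0.13 in sgControl (0.0824, not called). The sgRELA fall from day 6 had an adjusted p of 0.0570 without sgRELA day 6 replicate 1, and in sgControl it passed without day 7 replicate 3 (0.0308). With the first library alone, none of these falls was called. RHOBTB2 and AC107959.2 overlap TNFRSF10B in GENCODE v29. CTSG and PPP1R15A followed TNFRSF10B most closely over the 18 RNA samples (Pearson r = 0.90 for each).

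TNFRSF1A (ENSG00000067182, chr12:6328757-6342114, minus strand) encodes the main TNF receptor, which carries a death domain. Its lowest, median and highest levels over the 9 samples were 45.2, 51.3 and 63.9 CPM in sgControl and 40.1, 52.3 and 70.5 CPM in sgRELA. Across days it stood at 52.2 ± 1.43 and 52.7 ± 0.391 CPM (SD, n = 3), a log2 fold change of 0.01 ± 0.07 (SE; edgeR adjusted p = 0.993). TNFRSF1A was not called between any days. RAB2B (Pearson r = 0.80) and ENSG00000246090 (0.78) were nearest to it over the 18 RNA samples.

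TNFRSF1B (ENSG00000028137, chr1:12167003-12209228, plus strand) encodes the second TNF receptor, which has no death domain. It had 29, 0 and 0 counts in sgControl on day 5, 16, 0 and 0 on day 6, and 0, 1 and 0 on day 7. In sgRELA it had 21, 4 and 0 counts on day 5, 2, 14 and 0 on day 6, and 5, 0 and 8 on day 7. In sgControl each of the 3 samples with counts had them in 1 library only. The log2 fold change of 0.13 ± 1.104 (SE; edgeR adjusted p = 0.995) did not pass, and its SE is wider than the estimate.

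Per kilobase of exon, which allows genes to be compared, the mean levels in sgControl ran from TNFRSF10B (14.8 CPM per kb) and TNFRSF1A (13.03) through FAS (4.39), CD40LG (2.10), CD70 (1.01) and LTA (0.397) to TNF (0.0936), TNFRSF1B (0.0604), LTB (0.0435) and TNFRSF9 (0.000738). In sgRELA LTB, at 0.552 CPM per kb across days, stood above LTA (0.451), and TNFRSF9, at 0.227, stood above TNF (0.130) and TNFRSF1B (0.0659). On day 6, however, LTA (0.701) stood above LTB (0.505), and on day 7 TNF (0.191) stood above TNFRSF9 (0.187). For LTB and LTA, and for TNFRSF9 and TNF, the ranges of mean ± SD across days overlapped. The first 5 genes of the sgControl order kept it in sgRELA, with 16.3, 13.1, 5.89, 1.90 and 1.30 CPM per kb. Sparse neighbours such as TNF, TNFRSF1B and LTB in sgControl did not differ beyond the SD over their replicates. Lengths are those of all GENCODE v29 exons of a gene joined together, and the transcripts present in the cells may be shorter.

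Between days, the calls among the 10 genes were few and all downward, and each involved day 7. In sgControl 1 of 10 was called between days 7 and 6 (CD70; 14.6% of all genes) and 2 of 10 between days 7 and 5 (CD70 and TNFRSF10B; 13% of all genes). In sgRELA 2 of 10 were called between days 7 and 6 (12.2% of all genes) and 2 of 10 between days 7 and 5 (12.4%), LTA and TNFRSF10B in both. Between days 6 and 5, 0 of 10 passed in either guide, where 8.87% of all genes were called in sgControl and 6.91% in sgRELA. At an unadjusted p under 0.05 by edgeR, 0 of 10 passed in either guide, against 21% of all genes in sgControl and 19% in sgRELA, and DESeq2 called 0 of those to which it gave an adjusted p. For the interaction of guide and day, edgeR called 0 of 10 (0.00363% of all genes), 1 passed at an unadjusted p under 0.05 (LTA; 4.69% of all genes), and DESeq2 called 0 of those to which it gave an adjusted p. With 1 or 2 genes called of 10, these shares lie near the background. Comparisons with day 7 share its samples and are not independent of each other.

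**Figure D3:**
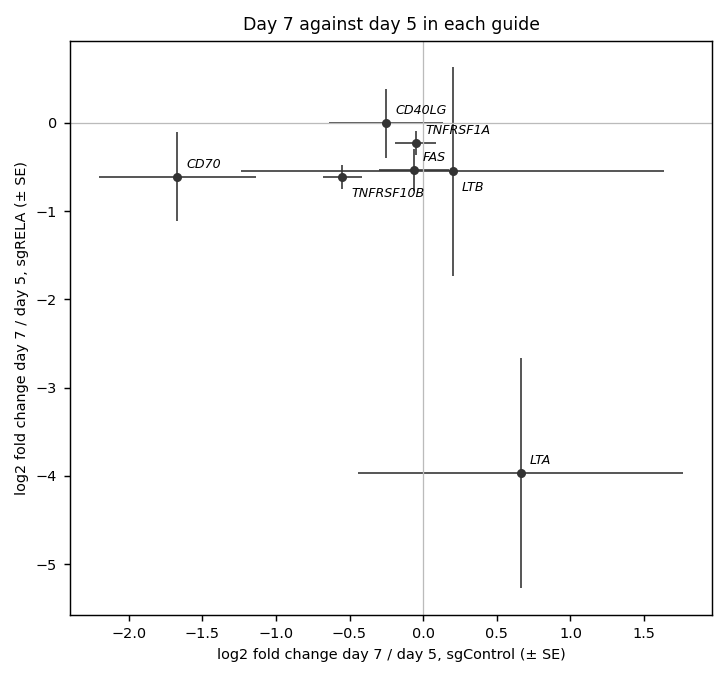
Fitted log2 fold change of day 7 against day 5 in sgControl (x axis) and in sgRELA (y axis) for 7 genes, with SE bars; TNF, TNFRSF1B and TNFRSF9 have groups with 0 or 1 counts and are left out. TNFRSF10B lies near -0.55 and -0.61, CD70 lies lowest in sgControl at -1.67, and LTA lies lowest in sgRELA at -3.97.

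The rest of the family was read from 3 lists: 13 other ligands, 24 other receptors and 16 adaptor proteins that carry the signal from the receptors. Between guides across days, 0 of the 10 other ligands tested, 0 of the 16 other receptors tested and 0 of the 16 adaptors were called by edgeR. The share called over all genes was 0.363%. At an unadjusted p under 0.05, 2, 2 and 5 of them passed, against 6.74% of all genes. DESeq2 called 0, 0 and 1 (TRAF4), and 235 of the 28888 genes in all. The median log2 fold changes were 0.15, -0.03 and 0.06, beside -0.00 over all genes. Of the ligands, EDA had a log2 fold change of -0.57 ± 0.20 (SE; edgeR adjusted p = 0.445), TNFSF13, known as APRIL, 0.67 ± 0.29 (0.670) and TNFSF12, known as TWEAK, 0.84 ± 0.48 (0.826). Of the receptors, TNFRSF4, the costimulatory receptor OX40, had 1.47 ± 0.53 (0.505), EDAR -0.70 ± 0.26 (0.542) and TNFRSF10A, the TRAIL receptor DR4, -1.03 ± 0.57 (0.805). TNFSF12, TNFRSF4 and TNFRSF10A were sparse, with 87, 54 and 143 counts over all sgControl samples and 164, 158 and 73 over all sgRELA samples.

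Of the adaptors, TRAF4 had a log2 fold change of 0.30 ± 0.08 (SE; edgeR adjusted p = 0.150), TRAF3, which restrains non-canonical NF-kB signalling, 0.17 ± 0.05 (0.377), and BIRC3, a ubiquitin ligase bound to TRAF proteins, 0.28 ± 0.11 (0.558). TNFSF9, the ligand of TNFRSF9, was chosen after its values were seen and stood at 3.61 ± 0.212 CPM with sgControl against 4.15 ± 0.567 CPM with sgRELA. LTBR, the receptor of the LTA and LTB complex, and CD40, the receptor of CD40LG, were chosen in the same way and had 0 to 2 counts in every RNA sample. CD27, the receptor of CD70 and also chosen so, stood at 1.37 ± 0.381 and 1.90 ± 0.298 CPM (SD, n = 3).

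**Figure D4:**
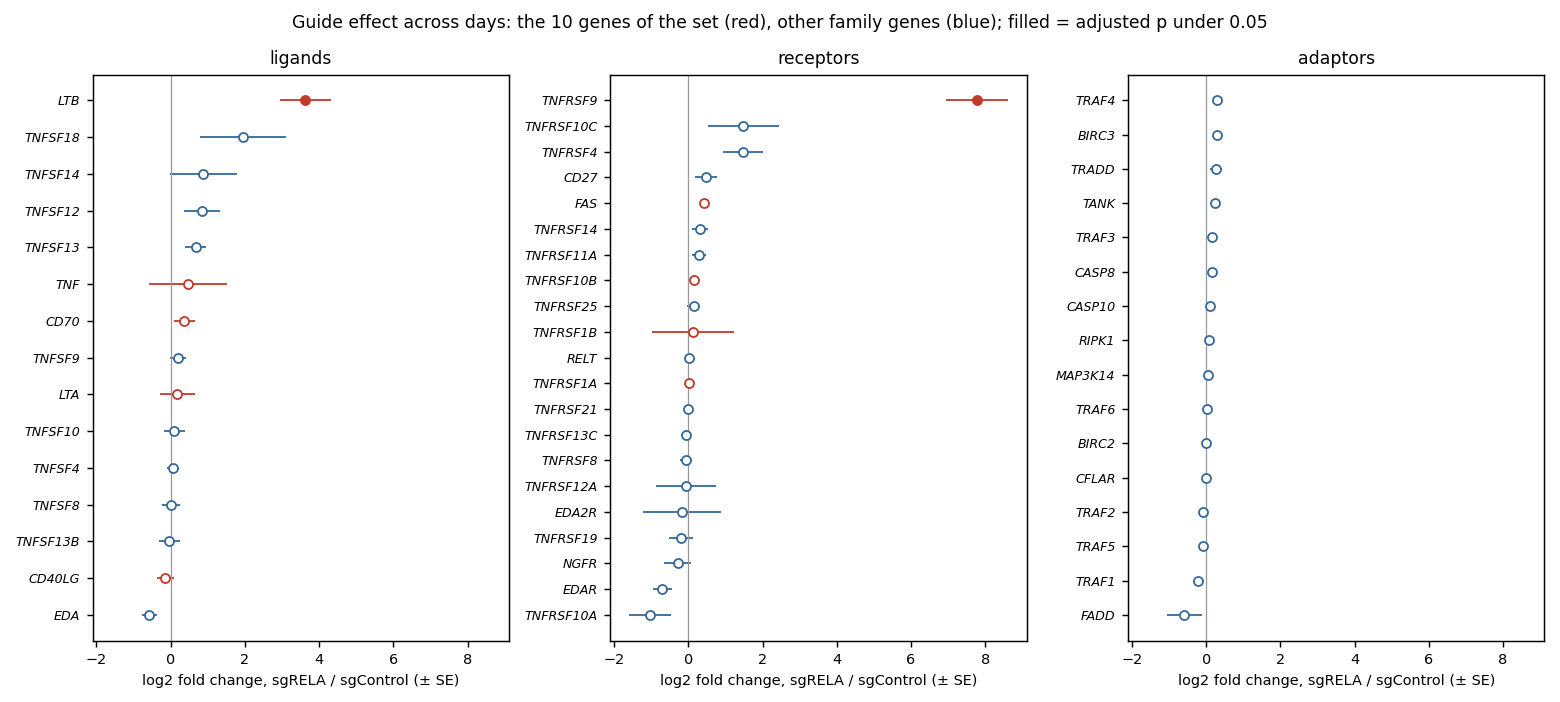
Fitted log2 fold change of sgRELA against sgControl across days with SE bars (x axis) for each tested ligand, receptor and adaptor (y axis, sorted); red marks the 10 genes described here, blue the other family genes, and filled points have an adjusted p under 0.05. LTB at 3.62 and TNFRSF9 at 7.77 are the filled points, and the position of TNFRSF9 depends on the small count that the fit adds to its near-empty control group.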

How the data were processed

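RamDA-seq was made from 18 RNA samples, 2 libraries each. The authors deposited raw read counts per gene, with no normalization, per the labels. The submitters' processing notes name cutadapt 1.18, STAR 2.7.9a and GRCh38. The counter, annotation, strand setting and treatment of reads with several matches are not given in the sources used here, so overlapping genes are uncertain. Without molecular identifiers, intervals and floors cover counting error only.

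Counts of both libraries were added per RNA sample, and over days per guide and replicate number for the comparison across days (3 sums against 3). The test was the quasi-likelihood F test of edgeR 4.0.16 (R 4.3.3) after TMM scaling and filterByExpr (minimum count 10), and p-values were adjusted over all genes tested by Benjamini-Hochberg. SE is the log2 fold change divided by the square root of F. The day fits used all 18 RNA samples and 6 group means. Counting intervals are exact binomial (Clopper-Pearson) on the pair of summed counts. The scripts were tested on simulated data, with changes placed only in genes above a set mean count. Across days this left out genes at the levels of TNF and TNFRSF1B, and on day 5 also those at the levels of LTA, LTB and TNFRSF9. Of the changes placed, 62% were recovered across days and 55% on day 5. False calls made up 5.34% of the calls across days and 7.56% on day 5. Alternatives were DESeq2 1.42.0, its size factors in edgeR, no filter, either library alone, leaving out 2 libraries with few detected genes, replicate blocks and leaving out each replicate; for the comparison across days, also the average of the day contrasts.

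The genes, the lists and the tests were chosen with earlier results of these data known. Named are all 10 genes, the genes of the other lists called between guides, the 3 per family list with the smallest p across days, and for genes at 5 CPM or more the 2 whose log2 CPM correlated best. Replicate numbers were checked for pairing: same-numbered samples correlated at -0.21 to 0.10 in their deviations over 27 pairs, so they were not treated as pairs. The labels state triplicate transductions, and whether one transduction was followed over the 3 days is not stated. The values of 1 of the marker genes are not reported here.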

Additional observations from a re-analysis of the deposited data

Results flagged for a closer look

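In 1 of 36 searches of 6 libraries of one group, made for genes with at least 10 counts per library on average, a single library stood apart. CD40LG was at 7.74 CPM (95 counts) in the second library of sgRELA day 5 replicate 1, while the other 5 libraries of that group lay between 1.35 and 3.47 CPM. The gap was 0.668 of the group's range. Chance marks about 1 in 20 such groups.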

How the results depend on the processing

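TNFRSF9 across days kept its direction and its call in all 14 alternative fits. Of the 10 genes, across days 1 was called with the first or second library alone and 3 with no filter (FAS joined), and 1 to 2 with a replicate left out. On day 5, 0 were called with either library alone and 0 to 1 with a replicate left out. On day 6, 0 were called with either library alone and 0 to 1 with a replicate left out; DESeq2 also called 0, but it gave TNFRSF9 no adjusted p there. On day 7, 1 was called by DESeq2 and 1 with no filter, TNFRSF9 in both.

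Between days 7 and 6, 0 were called in sgControl with the first or second library alone and 1 to 2 with a replicate left out. In sgRELA 0 were called with the first library, 1 with the second, 1 by DESeq2 (which gave LTA no adjusted p) and 0 to 2 with a replicate left out. Between days 7 and 5, sgControl gave 0 with the first library and 1 with the second, 1 with no filter, 1 without the 2 libraries with few detected genes, 1 with a replicate block within guide and 1 to 2 with a replicate left out. For sgRELA these were 0 with the first library, 1 with the second, 1 by DESeq2, 3 with no filter and 1 to 2 with a replicate left out. Fewer reads enter the fits with one library; the cause of the other differences was not tested.

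With the replicate number as a block, LTB was at 3.81 on the log2 scale (edgeR adjusted p = 0.0145) and TNFRSF9 at 7.67 (1.31e-05) across days, 2 genes stayed called, and all genes called went from 105 to 124. The paired numbers changed no call in the comparisons of guides; the block within guide took the day 7 against day 5 call of CD70 (adjusted p = 0.0525).

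Log2 fold changes that turned sign were of uncalled genes: LTA across days as the average of the day contrasts (-0.56), TNFRSF1A across days with the first library (-0.052) and FAS on day 7 with the first library (-0.10). Leaving out replicates spanned -0.19 to 0.71 for LTA, -0.038 to 1.05 for TNF, -0.36 to 0.0079 for CD40LG, -0.0092 to 0.026 for TNFRSF1A and -0.45 to 4.80 for TNFRSF1B across days, and -0.10 to 0.34 for FAS on day 7; the cause was not tested.

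Counts over all genes across alternatives were 42 to 235 across days (105 as reported), 15 to 73 on day 5 (38), 15 to 126 on day 6 (59), 13 to 55 on day 7 (25) and 0 to 24 for guide by day (1). Between days they were 430 to 3474 (2445), 1879 to 4853 (4012) and 820 to 4423 (3585) in sgControl for days 6 and 5, 7 and 6, and 7 and 5, and 196 to 2898 (1904), 961 to 4157 (3368) and 669 to 4371 (3420) in sgRELA. TNF, TNFRSF1B, LTA, LTB and TNFRSF9 have RNA samples with 0 counts, and the part of depth in this was not tested.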
